A study of Arabidopsis thaliana with 5 samples.

Results

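Pericentromeric heterochromatin is the gene-poor, repeat-rich sequence around the centromeres, and it was taken here as 5 windows, 1 on each nuclear chromosome of Arabidopsis thaliana, cut into 1 kb bins. The windows were Chr1:13000001-17000000, Chr2:2000001-6000000 without the segment 3239001-3510000, Chr3:11000001-16000000 without the segment 14195001-14205000, Chr4:3000001-6000000 and Chr5:10000001-14000000, in coordinates of the TAIR9 genome. They held 19719 of the 119671 bins of the genome, with 4000, 3729, 4990, 3000 and 4000 bins on Chr1 to Chr5. The members were chosen by position alone, and no chromatin mark was measured, so that the label rests on where the bins lie. The rest of the nuclear chromosomes, 99149 bins, is called the arms.

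From unopened flower buds, 5 libraries were made, 1 for each condition. In dsRNA-seq, total RNA pooled from 3 biological replicates was depleted of ribosomal RNA (rRNA), digested with a ribonuclease that cuts single-stranded RNA (RNase One), fragmented and sequenced with its strand kept. It was applied to wild-type Col-0 after 1 round (Col-0 1X) and after 2 rounds of depletion (Col-0 2X), and after 1 round to the rdr6 mutant in the Col-0 background, which lacks RNA-DEPENDENT RNA POLYMERASE 6 (the labels give no allele). Small RNAs (smRNAs) were sequenced from wild-type Col-0 and from rdr6. Since each condition has 1 library, no difference below has a replicate check, and every p compares 2 libraries and not 2 genotypes.

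In plants, RNA polymerase IV transcribes transposons and other repeats, RNA-DEPENDENT RNA POLYMERASE 2 turns the transcripts into dsRNA, and DICER-LIKE 3 cuts this into 24-nt smRNAs that guide DNA methylation back to the same sequences. RDR6 acts in another pathway, in which it copies cleaved or aberrant transcripts into dsRNA for 21- and 22-nt smRNAs such as trans-acting siRNAs. Pericentromeric sequence is rich in transposon copies and holds the satellite arrays of the centromeres, arrays of rRNA genes and insertions of organelle DNA, so that many reads from them have several locations.

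In each window, the 24-nt location with the most Col-0 smRNA reads is shown as an example of what these libraries sequenced. Each line gives the reference sequence (RefSeq, TAIR10.1, the same chromosome sequence as the files' build within the limits of the check described under processing) from 5′ to 3′ on the strand of the smRNA, with the 24 bases of the smRNA in capitals and 15 bases on either side:
Chr1:13568879-13568932, minus strand: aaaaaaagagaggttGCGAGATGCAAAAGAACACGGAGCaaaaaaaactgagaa
Chr2:5941230-5941283, plus strand: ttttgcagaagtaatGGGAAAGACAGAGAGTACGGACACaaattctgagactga
Chr3:15633045-15633098, plus strand: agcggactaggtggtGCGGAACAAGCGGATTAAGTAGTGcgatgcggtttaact
Chr4:5438993-5439046, plus strand: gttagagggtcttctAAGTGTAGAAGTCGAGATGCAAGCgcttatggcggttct
Chr5:10179365-10179418, plus strand: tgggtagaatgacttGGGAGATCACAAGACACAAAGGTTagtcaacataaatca
Of these 5 sites, the one on Chr4 starts with A and the other 4 with G. The Chr4 site had 129, 14, 47, 3394 and 2862 reads in Col-0 1X, Col-0 2X, rdr6 dsRNA, Col-0 smRNA and rdr6 smRNA. The Chr1 site had 936 and 637 smRNA reads, no read in either Col-0 dsRNA library and 2 in rdr6 dsRNA. The Chr2 site had 2061 and 1644 smRNA reads and 76, 0 and 5 dsRNA reads, and the Chr3 site 1692 and 3112 smRNA reads and 21, 0 and 1 dsRNA reads, in the same order.

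Stretches of dsRNA are shown next, from bins with the most dsRNA or smRNA reads in their windows, to show where the dsRNA-seq reads lay. Capitals mark the bases whose Col-0 1X coverage reached at least 50% of the highest in the stretch, on the plus strand of the same reference:
Chr2:2606090-2606209: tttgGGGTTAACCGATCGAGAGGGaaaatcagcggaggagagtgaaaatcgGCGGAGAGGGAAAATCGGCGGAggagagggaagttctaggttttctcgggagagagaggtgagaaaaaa
Chr3:15633039-15633158: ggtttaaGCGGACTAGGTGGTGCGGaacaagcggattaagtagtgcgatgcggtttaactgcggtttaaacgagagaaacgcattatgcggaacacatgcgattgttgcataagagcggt
Chr4:5439008-5439127: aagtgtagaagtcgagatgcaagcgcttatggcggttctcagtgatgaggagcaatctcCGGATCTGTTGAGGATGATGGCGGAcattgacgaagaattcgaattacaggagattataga
The stretch on Chr2 held 62.2% of the Col-0 1X coverage of its bin, the one on Chr3 54.4% and the one on Chr4 54.6%. On Chr4 the most covered 25 bases lay downstream of the 24-nt site with which the stretch begins. On Chr3 the most covered bases overlapped the start of the 24-nt site printed above. The 24-nt site printed for Chr2 lies in another bin.

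The tandem repeats of the windows are given as 1 unit each, because their reads cannot be placed on single copies. For the repeats of 178 and 159 bases, capitals mark the most sequenced 24-nt smRNA site. For the repeat of about 500 bases, whose unit of 498 bases was measured at Chr4:3058001-3058498, the 150 bases that held 95.2% of the unit's Col-0 1X coverage are printed, with the most covered bases in capitals. All 3 are on the plus strand of the reference:
178-base unit, Chr3:13590278-13590455: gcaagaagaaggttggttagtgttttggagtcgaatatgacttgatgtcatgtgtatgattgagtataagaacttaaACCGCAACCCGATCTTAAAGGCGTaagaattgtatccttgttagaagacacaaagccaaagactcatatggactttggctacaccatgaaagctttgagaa
159-base unit, Chr1:14824241-14824399: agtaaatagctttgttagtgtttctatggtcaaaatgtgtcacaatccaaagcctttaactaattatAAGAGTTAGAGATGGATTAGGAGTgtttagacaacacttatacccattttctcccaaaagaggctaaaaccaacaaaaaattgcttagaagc
498-base unit, part, Chr4:3058129-3058278: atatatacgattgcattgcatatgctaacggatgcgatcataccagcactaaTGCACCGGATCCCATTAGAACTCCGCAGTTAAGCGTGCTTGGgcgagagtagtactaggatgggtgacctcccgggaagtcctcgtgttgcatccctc
The 178-base unit reads as the centromeric satellite of Arabidopsis and the printed part of the 498-base unit as nuclear 5S rRNA, names given here from general knowledge and not from the annotation, which has no 5S rRNA gene in the windows. The site in the 178-base unit has 73 locations in the genome and the one in the 159-base unit 596.

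Mapped reads numbered 10294611 in Col-0 1X, 13773151 in Col-0 2X, 8193747 in rdr6 dsRNA, 10674768 in Col-0 smRNA and 11123274 in rdr6 smRNA. Each read was divided by its number of genomic locations and counted in the bin of its leftmost base, and levels are given as RPM, such reads per 1000000 mapped reads, per bin. Intervals are 95% Wilson intervals and cover counting error only. The genes checked for tissue were those of the flower regulators AP1, AP3, PI, AG and SEP3, which had between 37 and 304.2 reads in each dsRNA library. TAS3a, whose trans-acting siRNAs need RDR6, had 1485 reads in Col-0 1X and 8 in rdr6 dsRNA, and 16159 and 76 in the smRNA libraries, in the direction of the mutant's label. RDR6 itself had 22.3 and 10 reads in these dsRNA libraries, too few to check the label.

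Pericentromeric windows took far more of the smRNA than of the dsRNA. They held 7.25% of the mapped reads in Col-0 1X (interval 7.235 to 7.267), 4.46% in Col-0 2X (4.453 to 4.475), 11.7% in rdr6 dsRNA (11.65 to 11.70), 29.4% in Col-0 smRNA (29.41 to 29.47) and 32.5% in rdr6 smRNA (32.47 to 32.52). The share in rdr6 dsRNA was above that in Col-0 1X, and the share in Col-0 2X was below it, by more than these intervals. The 2 segments left out of the windows, which are an insertion of mitochondrial DNA and rRNA genes, held 25.1%, 25.1%, 19.95%, 2.27% and 1.19% in the same order.

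A few sequence classes carried much of the dsRNA in the windows. Bins of the 498-base repeat, named the 500-base repeat below (287 bins, 209 of them on Chr3), held 41.6% of the window reads in Col-0 1X, 49.0% in Col-0 2X and 17.3% in rdr6 dsRNA, but 4.34% and 4.20% in the smRNA libraries. Their levels were 105, 76.3 and 70.5 RPM per bin in Col-0 1X, Col-0 2X and rdr6 dsRNA and 44.5 and 47.5 in Col-0 and rdr6 smRNA. In Col-0 1X, 73.4% of their reads were 38 nt, the longest length in the files, which stands for fragments of at least that length, and 0.703% had 1 location. Another 8 bins with rRNA-like sequence (45S rRNA-like) held 4.90%, 10.4% and 3.27% of the window dsRNA reads, 95.1% of them on the plus (Watson) strand in Col-0 1X. The 42 organelle-like bins held 0.664%, 1.56% and 0.698%.

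The 178-base repeat, in 153 bins, stood at 3.55, 1.30 and 7.19 RPM per bin in Col-0 1X, Col-0 2X and rdr6 dsRNA and at 38.3 and 40.1 in the smRNA libraries. The 159-base repeat, in 136 bins, stood at 0.362, 0.0461 and 0.0981 RPM per bin in the dsRNA libraries and at 4.47 and 4.64 in the smRNA libraries. In Col-0 1X, 24-nt reads made up 38.6% of the reads of the 178-base repeat and 67.8% of those of the 159-base repeat, against 2.23% of those of the 500-base repeat. Over all their bins, rdr6 dsRNA was thus above Col-0 1X at the 178-base repeat and below it at the 159-base repeat. The chromosomes were not alike in this. On Chr4, which holds 53 of the 153 bins, the median log2 ratio of Col-0 1X over rdr6 dsRNA was 1.38 in the 20 bins of at least 10 reads, against −1.43 to −0.87 on the other chromosomes.

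**Figure D1:**
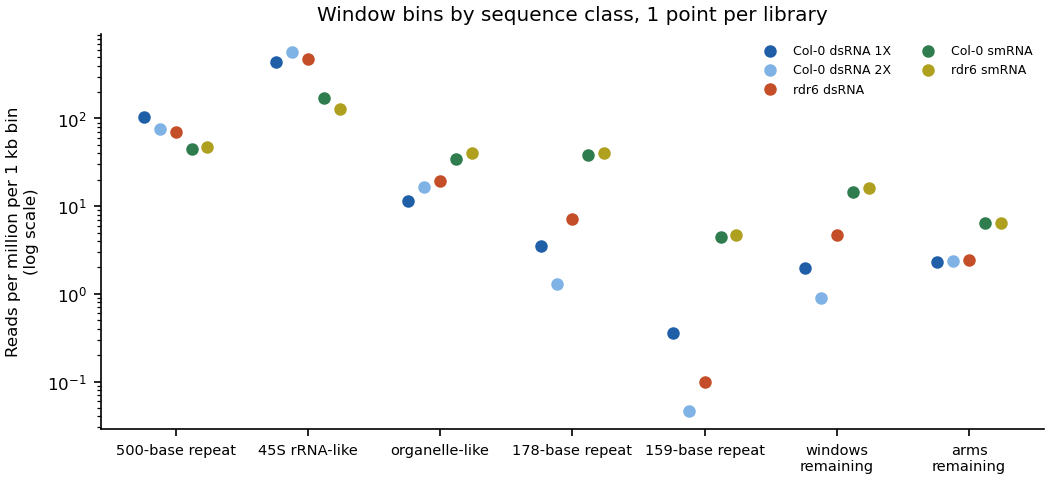
Mean RPM per 1 kb bin (log scale) in 5 sequence classes of the windows, in the remaining window bins and in the remaining arm bins, with 1 point per library. The 500-base repeat and 45S rRNA-like bins are higher in the 3 dsRNA libraries than in the smRNA libraries, and the 178-base repeat, the 159-base repeat and the remaining window bins are higher in the smRNA libraries.

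Without the 500-base repeat, 45S rRNA-like and organelle-like bins, classes chosen after their values were seen, 19382 bins remained, and the 178- and 159-base repeats are among them. Remaining window bins had a mean of 1.98 RPM in Col-0 1X, 0.899 in Col-0 2X, 4.74 in rdr6 dsRNA, 14.4 in Col-0 smRNA and 15.9 in rdr6 smRNA. Arm bins without the same classes (99061) had 2.32, 2.39, 2.45, 6.43 and 6.41 RPM. Over bins of every annotation together, the windows were above the arms in the mean by 1.93-fold in rdr6 dsRNA, 2.24-fold in Col-0 smRNA and 2.48-fold in rdr6 smRNA, and below them in Col-0 1X (0.851-fold) and Col-0 2X (0.377-fold). Arm bins with a tRNA, snRNA, snoRNA, miRNA or rRNA gene, 1.152% of the arm bins, held 49.61% of the arm reads in Col-0 1X and 53.16% in Col-0 2X. In both libraries the window mean was above the arm mean in bins without a gene and in protein-coding bins. It was below the arm mean over pseudogenes and in bins with those RNA genes. Over medians, which the few highest bins do not set, the windows were 2.91-fold above the arms in Col-0 1X, 3.62-fold in rdr6 dsRNA and 108-fold in Col-0 smRNA, and 0.75-fold in Col-0 2X. The medians behind these ratios were 0.565 and 0.194 RPM in Col-0 1X, and 5.07 and 0.0468 RPM in Col-0 smRNA. This arm median of Col-0 smRNA is near the floor, so that the 108-fold ratio rests on very few reads. The arm median of Col-0 1X is low as well, so that the 2.91-fold ratio also rests on few reads per bin. For rdr6 smRNA no ratio could be given, because its median arm bin had no reads.

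Reads covered a larger part of the bases in the windows than in the arms. For this, each read was counted at all its locations without division, so that a read of a repeat covers every copy. Reads covered 30.5% of the bases of the remaining bins in Col-0 1X, 18.02% in Col-0 2X, 21.8% in rdr6 dsRNA, 57.9% in Col-0 smRNA and 60.5% in rdr6 smRNA. In the arms the shares were 10.8%, 12.5%, 8.78%, 9.16% and 9.25%. The mean number of reads per distinct sequence was 1.70 in Col-0 1X and 2.68 in rdr6 dsRNA in these window bins, against 2.86 and 2.67 in the arms. Even so, the 100 bins with the most reads held 27.9% of the reads of the remaining bins in Col-0 1X, 29.5% in rdr6 dsRNA and 23.8% in Col-0 smRNA.

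In each dsRNA library the 5 windows differed from each other by less than any window differed between dsRNA libraries. In the remaining bins, Col-0 1X stood at 1.89, 2.51, 2.08, 1.67 and 1.67 RPM per bin on Chr1 to Chr5, Col-0 2X at 0.831, 1.06, 0.922, 0.714 and 0.935, and rdr6 dsRNA at 4.26, 6.05, 5.02, 3.88 and 4.31. Chr2 was the highest of the 5 in all 3 dsRNA libraries. Col-0 smRNA stood at 13.7, 16.04, 15.8, 13.7 and 12.3 RPM per bin and rdr6 smRNA at 15.1, 17.1, 17.7, 15.5 and 13.8, with Chr5 lowest in both. The ratio of rdr6 dsRNA to Col-0 1X was 2.25, 2.41, 2.42, 2.33 and 2.58 on Chr1 to Chr5. Before the classes were set aside, Chr3 held 47.1% of all Col-0 1X window reads, and 13.6% of those window reads lay in its remaining bins.

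Mean levels in Col-0 1X and Col-0 smRNA were higher further from the window centre, while the rank of the bins hardly changed with distance. The centre is the midpoint of the window's coordinates and was not set by the position of the centromere. In steps of 0.5 Mb from the centre, the remaining bins had means of 1.37, 1.41, 2.28, 2.41 and 4.34 RPM in Col-0 1X and 9.38, 10.99, 16.5, 17.6 and 30.8 RPM in Col-0 smRNA. The last step, from 2 to 2.5 Mb, exists on Chr3 only. Medians over the same steps went from 0.450 to 0.761 RPM in Col-0 1X and from 4.48 to 6.20 RPM in Col-0 smRNA, so that most of the climb in the means came from the highest bins. In rdr6 dsRNA the means were 3.91, 3.62, 5.79, 4.53 and 9.57 RPM. Spearman's rho between distance and level over the 19194 remaining bins for which it was computed was 0.09 in Col-0 1X, 0.11 in Col-0 2X, −0.00133 in rdr6 dsRNA, 0.03 in Col-0 smRNA and 0.02 in rdr6 smRNA.

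Chromosomes differed in this profile. On Chr1, Col-0 smRNA had means of 4.94, 8.72, 22.02 and 19.1 RPM per bin over the 4 steps, and on Chr3 8.10, 10.4, 14.2, 13.8 and 30.8. On Chr4 the middle step was highest, with 10.7, 17.97 and 12.5 RPM, and on Chr5 the second step was lowest, with 12.2, 6.94, 14.0 and 15.9 RPM. Chr1 has 158 bins without reference sequence in its window, where no read can map. The share of G and C in a bin was related to the dsRNA level more than distance was, with rho of 0.27 in Col-0 1X, 0.41 in Col-0 2X and 0.50 in rdr6 dsRNA, and 0.15 and 0.12 in the smRNA libraries. These correlations are over bins that share libraries, depth and base composition, and are a description.

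**Figure D2:**
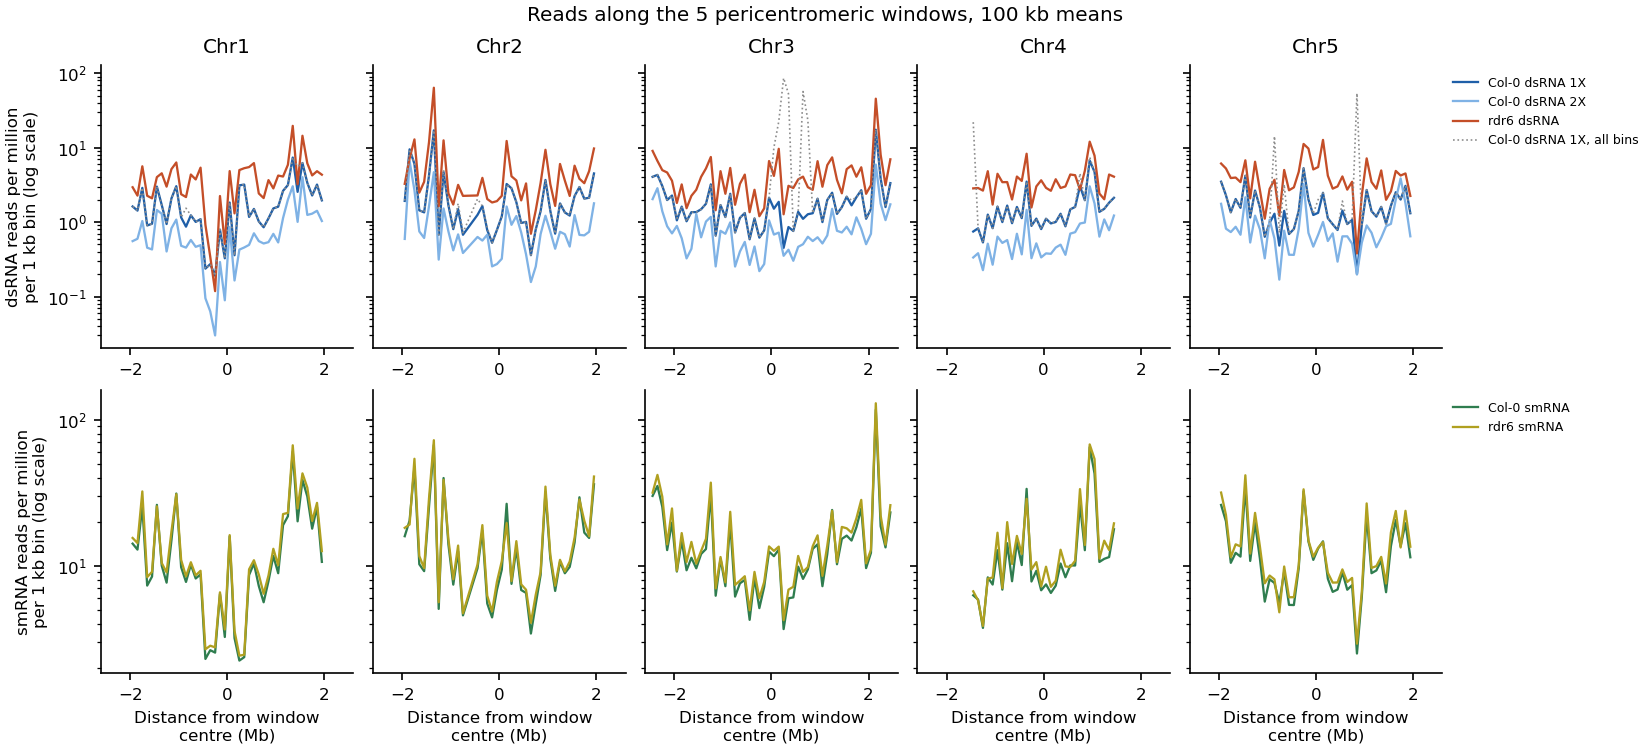
Mean RPM per 1 kb bin (log scale) in steps of 100 kb against the distance from the centre of each window in Mb, for the 3 dsRNA libraries (upper row) and the 2 smRNA libraries (lower row), without 500-base repeat, 45S rRNA-like and organelle-like bins. The dotted line shows Col-0 1X with all bins, whose peaks on Chr3, Chr4 and Chr5 are the 500-base repeat and 45S rRNA-like bins. The rdr6 dsRNA line runs above Col-0 1X nearly throughout, and both smRNA lines lie close together.

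Read length set the dsRNA libraries apart more than position did. In the remaining window bins, 24-nt reads were 35.6% of the reads in Col-0 1X (interval 35.41 to 35.71), 4.70% in Col-0 2X (4.615 to 4.784) and 1.49% in rdr6 dsRNA (1.466 to 1.521), against 72.8% in Col-0 smRNA and 73.7% in rdr6 smRNA. As a level, the 24-nt reads stood at 0.703, 0.0423 and 0.0708 RPM per bin in Col-0 1X, Col-0 2X and rdr6 dsRNA and at 10.5 and 11.7 RPM in the smRNA libraries. Col-0 1X was thus 9.93-fold above rdr6 dsRNA and 16.6-fold above Col-0 2X in 24-nt reads, while the smRNA libraries differed by 1.12-fold. In the arms the 24-nt level of Col-0 1X was 5.21-fold above rdr6 dsRNA and 2.99-fold above Col-0 2X, with a 24-nt share of 13.6%. That arm share is over all bins, most of which hold a protein-coding gene. Arm bins with a tRNA, snRNA, snoRNA, miRNA or rRNA gene, 1.152% of these bins, held 49.61% of the Col-0 1X arm reads. The 24-nt share of those reads was 2.455%. In bins of the same annotation, the Col-0 1X share was 41.9% in windows and 42.3% in arms without a gene, 33.6% and 33.5% over pseudogenes, and 29.5% and 15.4% over protein-coding genes.

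Short reads went the other way between the genotypes. Reads of 15 to 20 nt stood at 0.710 RPM per bin in Col-0 1X, 0.571 in Col-0 2X and 3.42 in rdr6 dsRNA, which made rdr6 dsRNA 4.81-fold higher than Col-0 1X, and the 21-nt reads were 4.67-fold higher. In the arms the same ratios were 2.24 and 1.79. These short reads were 35.9%, 63.5% and 72.1% of the dsRNA reads of the windows and 22.2%, 45.9% and 47.1% of those of the arms, so that the share rose in Col-0 2X and rdr6 dsRNA outside the windows too. The labels give the Col-0 2X library a 3′ adapter sequence that differs from that of the other 4, while the methods name 1 library kit for all, and its reads start at 15 nt, where those of the other libraries start at 17 nt. The part of library preparation, size selection and adapter in these differences was not tested. Reads of 38 nt were 4.33%, 3.78% and 1.74% of the reads in the remaining window bins and 24.6%, 10.03% and 13.5% in the arms.

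The first base differed with length. Among 24-nt reads of the remaining window bins, A came first in 52.9% in Col-0 1X, 44.0% in Col-0 2X, 49.4% in rdr6 dsRNA, 50.2% in Col-0 smRNA and 50.8% in rdr6 smRNA, which is the first base that the 24-nt smRNA partner ARGONAUTE 4 is known to favour. Among 18-nt reads of Col-0 1X, C came first in 40.7% and G in 37.8%, and in rdr6 dsRNA in 35.7% and 40.5%. Among 21-nt reads, G and C together led the dsRNA libraries, with G in 41.6% and C in 33.4% of Col-0 1X reads and in 52.1% and 33.9% of rdr6 dsRNA reads, whereas A and G led Col-0 smRNA with 34.2% and 34.9%. These letters are those of the reference at the location of each read, with reads of several locations divided over them.

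**Figure D3:**
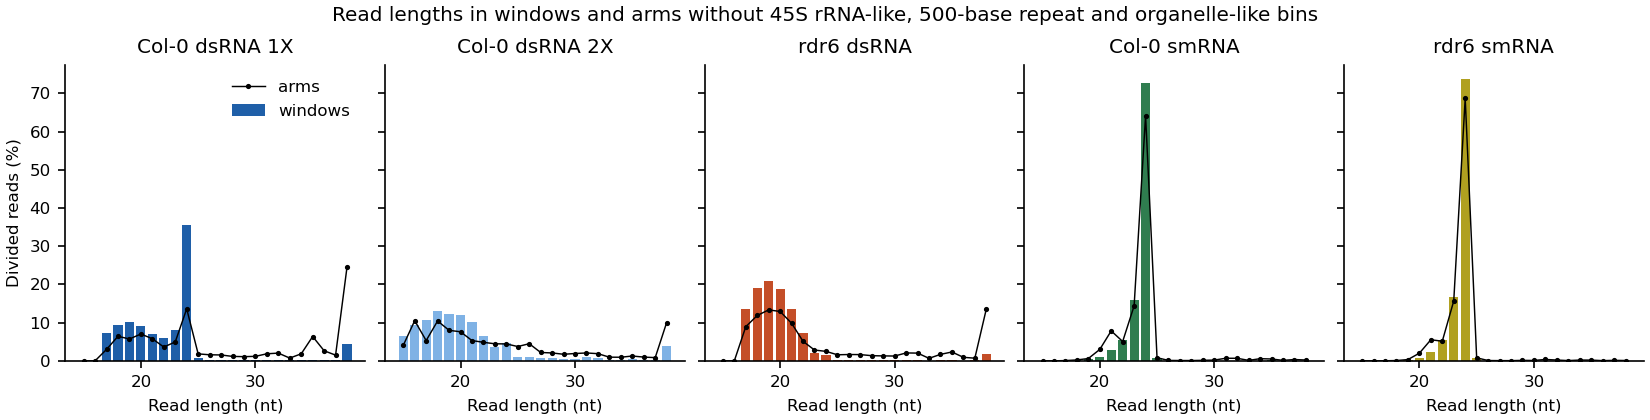
Share of divided reads (%) by read length (nt) in each of the 5 libraries, for the remaining window bins (bars) and the remaining arm bins (points and line). The windows peak at 24 nt in Col-0 1X (35.6%) and in both smRNA libraries (72.8% and 73.7%), and between 17 and 21 nt in Col-0 2X and rdr6 dsRNA.

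Both strands were read. Plus-strand reads were 53.0%, 52.2%, 54.8%, 52.5% and 52.4% of the reads of the remaining bins in Col-0 1X, Col-0 2X, rdr6 dsRNA, Col-0 smRNA and rdr6 smRNA. Within single bins of at least 20 reads, more than 90% lay on 1 strand in 16.7% of 3510 bins in Col-0 1X, 28.8% of 2114 in Col-0 2X, 23.1% of 5578 in rdr6 dsRNA, 2.11% of 14846 in Col-0 smRNA and 1.94% of 15450 in rdr6 smRNA. In the arms these shares were 52.9%, 82.2%, 59.9%, 10.2% and 9.72%, but the arms hold mostly protein-coding bins. In bins without a gene the shares in windows and arms were 18.1% and 21.1% in Col-0 1X, and 31.9% and 44.4% in rdr6 dsRNA. Over pseudogenes they were 8.27% and 10.8% in Col-0 1X, and 15.3% and 20.3% in rdr6 dsRNA. Over protein-coding genes they were 37.7% and 69.8% in Col-0 1X, and 42.4% and 75.3% in rdr6 dsRNA. The gap was thus narrower than over all bins in bins without a gene and over pseudogenes. It stayed wide over protein-coding genes, and it was not tested. Where both Col-0 1X and Col-0 smRNA had at least 20 reads (3356 bins), the strand with more reads was the same in 82.7%.

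The 24-nt reads were also examined for the offset of 2 bases that the ends of a cut duplex have. Among 191725 plus-strand 24-nt sites of Col-0 smRNA with 1 location, 9.34% (interval 9.209 to 9.469) had a minus-strand site at this offset, against 7.82% and 8.21% at the neighbouring offsets and 7.20% to 10.1% over the other offsets examined. In Col-0 1X the share was 2.64% of 25707 sites, with 2.05% to 3.09% at the other offsets. Its neighbours stood at 2.31% and 2.30% in Col-0 1X. The offset of 2 bases was thus above its neighbours and within the range of the other offsets in both libraries.

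dsRNA and smRNA lay on the same bins and bases of the windows. Of the window bases with a Col-0 1X read, 93.4% also had a Col-0 smRNA read, and 92.7% of those with an rdr6 dsRNA read had an rdr6 smRNA read, against 38.4% and 29.2% in the arms. In the other direction, 49.98% and 34.2% of the smRNA bases of the windows had dsRNA, and 45.3% and 27.7% in the arms. The smRNA libraries covered 58.4% and 60.95% of the bases of the windows, and 9.16% and 9.25% of those of the remaining arm bins, which sets what overlap can be seen. Bases were counted as covered by a read at any of its locations, so that a read of a repeat covers every copy. Over the 19719 window bins, Spearman's rho between Col-0 1X and Col-0 smRNA was 0.84, and it was 0.73 for reads with 1 location and 0.57 without reads of 20 to 25 nt. It was 0.58 between Col-0 2X and Col-0 smRNA, 0.70 between rdr6 dsRNA and rdr6 smRNA and 0.99 between the smRNA libraries. Without dsRNA reads of 20 to 25 nt it was 0.52 for Col-0 2X and 0.65 for rdr6. Col-0 1X, at 0.57, was then no longer the highest of the dsRNA libraries. Over the remaining arm bins the values with all reads were 0.42, 0.18, 0.31 and 0.64, with Col-0 1X first. Bins share mappability and base composition, so these values are a description.

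Annotated genes in the windows were mostly pseudogenes, the class in which this annotation places many transposon copies, and it names no transposon families. Of the remaining bins, 48.1% overlapped a pseudogene, 33.0% no gene, and 17.2% a protein-coding gene. Pseudogene bins had means of 1.55 RPM in Col-0 1X, 4.67 in rdr6 dsRNA and 11.4 in Col-0 smRNA, bins without a gene 2.38, 5.16 and 19.4, and protein-coding bins 1.87, 3.77 and 11.3. Arm pseudogene bins stood higher, at 2.29, 5.21 and 16.7 RPM, whereas arm bins without a gene had 1.94, 3.29 and 15.9 and arm protein-coding bins 0.930, 1.35 and 2.87. The windows were thus below the arms over pseudogenes and above them in the other 2 kinds of bin. In the windows, the medians put Col-0 smRNA at 5.90 RPM in pseudogene bins, 5.25 in bins without a gene and 0.515 in protein-coding bins. At the level of single transposons, CACTA1 (At2g12210, Chr2:4902163-4908827, plus strand), a copy of the CACTA class of cut-and-paste elements, had 36.8, 19.1, 36.3, 328 and 375 reads in Col-0 1X, Col-0 2X, rdr6 dsRNA, Col-0 smRNA and rdr6 smRNA. AtMu1 (At4g08680, Chr4:5542431-5544862, minus strand), a Mutator-like element, had 145, 46.3, 76.2, 1320 and 1804 reads. Only 5.44% of the Col-0 1X reads and 6.40% of the Col-0 smRNA reads of CACTA1 had 1 location. At AtMu1 these shares were 18.7% and 18.8%, so that most reads cannot be assigned to either copy. The 24-nt share in AtMu1 was 61.3% in Col-0 1X and 2.63% in rdr6 dsRNA, and in CACTA1 50.9% and 3.45%. In Col-0 2X it was 13.7% in AtMu1 and 12.6% in CACTA1, so that a lower share than in Col-0 1X was not particular to rdr6. At both elements the dsRNA of rdr6 thus had few 24-nt reads while its smRNA had many.

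The bin comparison asks where the loss of RDR6, or another round of depletion, went with a change in reads. A bin was called when the reads per mapped reads differed at least 2-fold with a one-sided Audic–Claverie p, an exact posterior for 2 libraries of counts, under 0.001 and no adjustment for the number of bins. Fewer reads in Col-0 1X than in rdr6 dsRNA were called in 3841 window bins (19.5%), where 6.4% of all bins of the genome and 3.66% of arm bins were called. More reads in Col-0 1X were called in 301 window bins (1.53%), against 1.63% of all bins and 1.63% of arm bins, a share near the background. The median log2 ratio of Col-0 1X over rdr6 dsRNA among bins with at least 10 reads was −1.20 in the windows and −0.33 in the arms.

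The direction of this comparison depended on counting read copies. When each distinct sequence was counted once, 430 window bins were called higher and 365 lower in Col-0 1X than in rdr6 dsRNA, so that lower bins no longer outnumbered higher ones. With libraries scaled by the median ratio over bins outside the windows, which adds 0.44 to each log2 ratio, 619 and 2403 bins were called.

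Chr1 to Chr5 had 754, 653, 940, 611 and 883 of the 3841 bins, between 17.5% of the bins of Chr2 and 22.1% of those of Chr5. They were 27.8% of the remaining pseudogene bins, 13.9% of those without a gene and 8.75% of protein-coding ones, and in the arms 24.9%, 5.79% and 1.98%. Col-0 1X had 5.06 RPM per bin in them and rdr6 dsRNA 18.01. Reads of 15 to 20 nt were 47.8% of the Col-0 1X reads there and 73.6% of the rdr6 dsRNA reads, and 24-nt reads 27.3% and 0.892%. The smRNA of these bins had medians of 13.1 RPM in Col-0 and 13.4 in rdr6, and 2 of them were called higher and 3 lower in Col-0 smRNA. Of all bins of the genome, 0.432% were called higher and 0.21% lower in Col-0 smRNA. Toward the outside, the called share of the remaining bins was 21.2%, 21.8%, 19.4%, 16.3% and 17.5% over the steps from the centre.

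The largest differences of this kind among bins of at least 100 reads lay in 3 bins without a gene. Chr1:14490001-14491000 had 25.5 reads in Col-0 1X, 23.8 in Col-0 2X and 332 in rdr6 dsRNA (log2 ratio −4.01, Audic–Claverie p 3.87e-86), with 248 and 289 smRNA reads in Col-0 and rdr6. Chr5:11809001-11810000 had 8.52, 7.36 and 99.7 dsRNA reads (log2 −3.80) and Chr4:4430001-4431000 had 9.53, 4.002 and 103 (log2 −3.70). In each of the 3 the most abundant rdr6 sequence had 1 location and between 17 and 19 nt. The log2 ratios of Col-0 over rdr6 smRNA in the 3 bins were −0.16, −0.26 and 0.00.

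Among the 301 bins with more dsRNA in Col-0 1X, 46 were bins of the 500-base repeat (16% of its bins, where 5 were lower). The largest ratio was at Chr5:11785001-11786000, over the tRNA gene AT5G32017, with 1493 reads in Col-0 1X, 2604 in Col-0 2X and 38.2 in rdr6 dsRNA (log2 4.94). Chr1:16585001-16586000, over the tRNA gene AT1G43820, had 1335, 2764 and 54.6 reads (log2 4.27), and in both bins the most abundant Col-0 1X sequence was 31 nt with 25 locations, so that these reads cannot be assigned to either gene. At Chr2:2148001-2149000, over the end of the protein-coding gene AT2G05720, the levels were 118 reads in Col-0 1X, 13.1 in Col-0 2X and 7.83 in rdr6 dsRNA (log2 3.50), with 1340 and 1158 smRNA reads. In this bin 76.6% of the Col-0 1X reads were 24 nt, and without reads of 20 to 25 nt it was no longer called (log2 0.16). With reads of 1 location only, neither tRNA bin was called (log2 1.39 and 0.76).

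**Figure D4:**
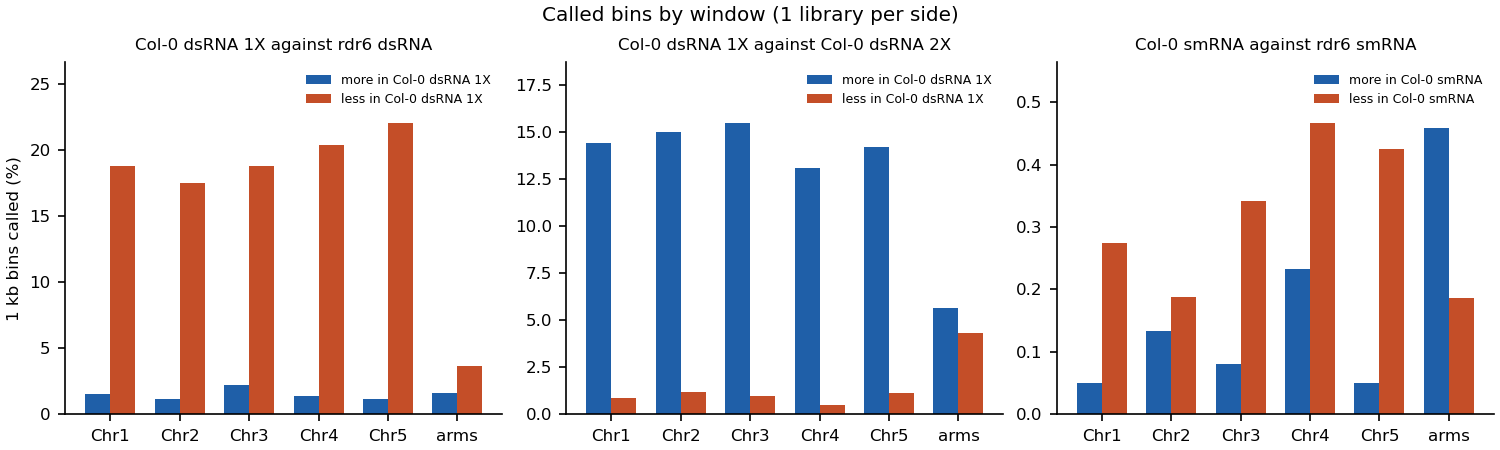
Share of 1 kb bins called (%) in each window and in the arms, in the 3 library comparisons, with bins higher and lower in the first library named. Each side is 1 library and no error can be drawn. In all 5 windows between 17.5% and 22.1% of bins had fewer dsRNA reads in Col-0 1X than in rdr6, and the smRNA panel has an axis that ends below 1%.

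Between the Col-0 dsRNA libraries, 2872 window bins (14.6%) had more reads after 1 round of depletion, with 7.11% of all bins and 5.62% of arm bins called, and 187 (0.948%) had more after 2 rounds, with 3.8% of all bins and 4.32% of arm bins called. Without reads of 20 to 25 nt, 481 bins were higher and 175 lower in Col-0 1X. In the 2872 bins, 24-nt reads were 33.3% of the Col-0 1X reads and 5.61% of the Col-0 2X reads. The largest ratios lay at Chr2:2265001-2266000, with 222 and 10 reads in Col-0 1X and Col-0 2X (log2 4.83), at Chr5:10175001-10176000 with 104 and 4.5 (log2 4.81), and at Chr5:13827001-13828000 with 135 and 7.5 (log2 4.50), none of which overlaps a gene. In the first, 82.9% of the Col-0 1X reads were 24 nt, and without reads of 20 to 25 nt its log2 ratio became −0.80. The other 2 were then no longer called (log2 1.81 and 1.08).

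Of the 187 bins, 129 overlapped a protein-coding gene and were among the remaining bins. Protein-coding bins were 17.15% of all remaining window bins and 76.67% of the remaining arm bins. Chr5:13702001-13703000, over MIS12 (AT5G35520), a gene of the kinetochore, had 2 reads in Col-0 1X, 3926 in Col-0 2X, 2.5 in rdr6 dsRNA and none in the smRNA libraries. The most abundant of its 172 distinct Col-0 2X sequences was 16 nt and made up 49.2% of the reads. That sequence has 3 locations and 1.17% of the reads have 1 location, so that they cannot be assigned to MIS12, and with reads of 1 location only the log2 ratio of Col-0 1X over Col-0 2X went from −10.20 to −3.80. Chr5:13655001-13656000, over the pseudogene AT5G35420, had 1 and 1735 reads, with a 15-nt sequence at 55.4%, and Chr5:11025001-11026000, without a gene, had 1.66 and 784 reads, with an 18-nt sequence at 46.7%. Copies of 1 short sequence thus made up a large part of each of these bins in Col-0 2X.

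The smRNA libraries were closer to each other. Of the window bins, 20 (0.101%) were called higher in Col-0 smRNA, with 0.432% of all bins and 0.459% of arm bins called, and 66 (0.335%) were called lower, with 0.21% of all bins and 0.186% of arm bins called. The median log2 ratio of Col-0 over rdr6 smRNA was −0.15 in window bins of at least 10 reads and −0.06 in arm bins. With scaling by the median ratio outside the windows the counts were 24 and 47. The 66 bins had 6.48 and 15.6 RPM per bin in Col-0 and rdr6 smRNA, and 75.8% and 76.7% of these reads were 24 nt. In the 20 bins, 21-nt reads were 19.1% of the Col-0 reads and 3.10% of the rdr6 reads.

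Among the largest of these smRNA differences, Chr2:2201001-2202000, over AT2G05790, a protein-coding gene, had 530 and 157 smRNA reads in Col-0 and rdr6 (log2 1.81, Audic–Claverie p 4.66e-52). The bins Chr4:4402001-4403000 (150 and 48.6 reads, log2 1.67) and Chr4:3149001-3150000 (159 and 54.8 reads, log2 1.59) shared their most abundant 24-nt sequence, which has 7 locations, and are not separate observations. With reads of 1 location only, neither was called (log2 0.06 in both). In the other direction, Chr1:13699001-13700000 had 2.5 and 142 reads, and Chr3:11088001-11089000, over the long non-coding RNA gene AT3G05695, had 4.58 and 167 reads (log2 −4.98) together with 1, 1 and 35 dsRNA reads in Col-0 1X, Col-0 2X and rdr6. Chr5:13435001-13436000, over EXT13 (AT5G35190), a gene of the cell wall extensin family, had 17.6 and 90.1 reads (log2 −2.26), and with undivided reads it was no longer called (log2 −0.64). At the Chr1 and Chr5 bins no dsRNA library had more than 3 reads.

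Finally, the bins with the most reads in each window show how the libraries differed at single places. Chr2:2606001-2607000, without a gene, had the most Col-0 1X reads of the Chr2 window, with 7382, 3480, 26242, 20948 and 21694 reads in Col-0 1X, Col-0 2X, rdr6 dsRNA, Col-0 smRNA and rdr6 smRNA, and 95.6% of its Col-0 1X reads were on the plus strand. Its log2 ratio of Col-0 1X over rdr6 dsRNA was −2.16 and that of the smRNA libraries 0.01. The nearby bin Chr2:2604001-2605000, over AT2G06555, a protein-coding gene, had the most smRNA reads of the window, with 4130, 1010, 9527, 21595 and 25308. The 24-nt share of rdr6 dsRNA was 0.635% in the first and 1.096% in the second bin.

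Chr3:15633001-15634000, which reaches into the pseudogene AT3G43730, had the most smRNA reads of the Chr3 window, with 4726, 1068, 11756, 28929 and 35024 reads in the 5 libraries in the same order. One 18-nt sequence with 1 location made up 25.3% of its rdr6 dsRNA reads, on the plus strand like the Chr3 stretch printed above. Chr4:5439001-5440000, at the end of the protein-coding gene AT4G08545, had the most reads of its window in both Col-0 1X and Col-0 smRNA, with 3743, 2722, 6982, 36646 and 36160 reads, and 24-nt reads made up 50.1%, 5.66% and 2.61% of the 3 dsRNA libraries there. On Chr1 the most smRNA lay at Chr1:16604001-16605000, without a gene, with 803, 259, 1102, 9500 and 12712 reads, and on Chr5 at Chr5:10566001-10567000, over the protein-coding gene AT5G28560, with 741, 316, 707, 5987 and 7516. At each of these 5 bins with the most Col-0 smRNA reads, Col-0 1X was above Col-0 2X per mapped read, and rdr6 dsRNA was above Col-0 1X. The log2 ratio of Col-0 1X over rdr6 dsRNA was −0.79 on Chr1 and −0.26 on Chr5, short of the 2-fold limit. Scaling by the median ratio outside the windows adds 0.44, so that the direction on Chr5 depends on the scaling.

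The bins with the most Col-0 1X dsRNA on Chr1, Chr3 and Chr5 belonged to the rRNA-like classes. Chr1:16432001-16433000 and Chr5:11185001-11186000 are bins of the 500-base repeat, with 165, 106 and 100 RPM on Chr1 and 301, 206 and 223 RPM on Chr5 in Col-0 1X, Col-0 2X and rdr6 dsRNA. Chr3:14192001-14193000, a 45S rRNA-like bin beside the segment left out of that window, had 29813, 55051 and 21955 dsRNA reads, 99.6% of them on the plus strand in Col-0 1X, and none of its Col-0 1X reads had 1 location.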

How the data were processed

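For each library the authors deposited raw counts, the number of reads of each non-redundant sequence, with its length and all its locations. They had trimmed the 3′ adapter, kept untrimmed reads, and aligned with cross_match, allowing mismatches of up to 6% of the bases, so that letters printed here are those of the reference. The build, TAIR9, is from the submitters' processing notes. In 20000 pairs of locations shared by 1 sequence, the TAIR10.1 reference (RefSeq) differed between both locations by at most 12% of the bases in 100%, and in 0% after a shift of 1 base.

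Counts were divided by the number of locations and summed in bins of 1000 bases. Whole reads for the Audic–Claverie test were rounded, and 0.5 reads were added for printed log2 ratios only. Repeats were found by self-match, and by blastn 2.17.0 against rRNA and organelle sequence. Members, lists and classes were chosen with earlier results of these data known. Bins named in the text are those with the most Col-0 1X or Col-0 smRNA reads in each window and the 3 largest ratios each way in every comparison, among called bins that hold 100 reads or more, with CACTA1 and AtMu1. Alternatives were undivided reads, reads with 1 location, distinct sequences, another scaling, a 4-fold limit, reads without 20 to 25 nt, and leaving out classes. Only the rule for calling bins was tested on simulated counts. The software was Python 3.11.15, numpy 2.4.6, pandas 2.3.3, scipy 1.17.1 and matplotlib 3.10.9. The annotation used has no transposon families, so these were not analysed here.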

Additional observations from a re-analysis of the deposited data

How the results depend on the processing

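Counts of called bins changed with the counting of reads. With undivided reads, 1611 and 6160 window bins were higher and lower in Col-0 1X than in rdr6 dsRNA, and 8388 were higher in Col-0 1X than in Col-0 2X. Reads with 1 location gave 196, 1734 and 1571 for the same 3 counts, and 124 bins lower in Col-0 smRNA. With each distinct sequence counted once, 365 were lower in Col-0 1X than in rdr6 dsRNA (430 were higher), 90 lower than in Col-0 2X, and 8 higher and 23 lower in Col-0 smRNA. Scaling by the median ratio over bins outside the windows gave 619 and 2403 against rdr6 dsRNA and 4343 and 100 against Col-0 2X, and adds 0.44 and 0.36 to the log2 ratios. Scaling by reads outside the rRNA-like, 500-base repeat and organelle-like classes gave 521 higher against rdr6 dsRNA. A limit of 4-fold gave 178 and 1657, 1747 and 82, and 4 and 11 in the 3 comparisons. Without reads of 20 to 25 nt, 103 were higher in Col-0 1X than in rdr6 dsRNA and 481 higher than in Col-0 2X. Leaving out the classes, the scaling outside them, and every setting for single bins were added after seeing the data.

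The share of mapped reads in the windows, in the order Col-0 1X, Col-0 2X, rdr6 dsRNA, Col-0 smRNA and rdr6 smRNA, was 9.40%, 5.80%, 14.0%, 27.5% and 29.5% for reads with 1 location, 16.1%, 8.02%, 17.5%, 38.4% and 40.1% for distinct sequences, and 3.83%, 1.74%, 9.19%, 27.9% and 30.9% without the classes. The 24-nt share of window reads was 19.9%, 3.96%, 1.66%, 72.2% and 73.2% with all reads, 38.5%, 5.33%, 1.75%, 74.0% and 74.9% for reads with 1 location, 34.8%, 5.37%, 3.21%, 60.5% and 62.2% for distinct sequences, and 35.6%, 4.70%, 1.49%, 72.8% and 73.7% without the classes. For the 18 bins named for a ratio, 105 of 120 values under alternatives kept direction and call, 14 were no longer called, and 1 turned, at Chr2:2265001-2266000 without reads of 20 to 25 nt (−0.80). The cause of these changes was not tested. No paired analysis was possible because each condition has 1 library. For the same reason no replicate could be left out, and depth limits bins of few reads, since 33.8% of the remaining window bins had at least 10 reads in Col-0 1X.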
